A study of Rattus norvegicus with 90 samples.

Results

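The highest of 3 doses of human umbilical cord mesenchymal stromal cells (HuMSC), 125 M cells per kg given through the nose at postnatal day 20 (P20) to IL-1β-injured rats, was compared with injured rats that received vehicle alone, in brain microglia collected at P22. Samples were chosen by their titles, which gave 3 libraries with this dose (called HuMSC125) and 3 injured libraries, 6 of the 90 libraries of the series, and all genes were examined. All animals of the P22 intranasal experiment were male Wistar Han rats. HuMSC125 animals had received recombinant mouse IL-1β by intraperitoneal injection at 20 µg per kg in the first days of life, then the cells at P20, and their brains were taken 48 hours later. Injured animals had received the same IL-1β and then the phosphate-buffered saline vehicle (PBS) in place of cells. Beside them stood 3 libraries each of IL-1β-injured rats given 50 M cells per kg (HuMSC50), IL-1β-injured rats given 20 M cells per kg (HuMSC20) and uninjured controls given PBS in place of both IL-1β and cells. The model is one of systemic inflammation around birth, so IL-1β was not injected into the brain, and the given cells are human cells in a rat host. After perfusion, olfactory bulbs and cerebellum were removed, the rest of the brain was dissociated with enzymes, and cells binding CD11b/c beads were collected, so a gene's level also depends on which cells came through the beads and on their handling.

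Microglia are the resident macrophages of the brain. Signals such as injury, cytokines or tissue handling set off immediate early genes within minutes, and the transcription factor NF-κB drives cytokines, chemokines and its own inhibitor. Mesenchymal stromal cells do not usually persist in a host brain and are studied for the factors they release, which can lower inflammatory gene expression in macrophages.

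The 6 libraries held 15.4 to 18.8 M counted reads in HuMSC125 and 14.6 to 19.1 M in injured animals, and the 15 libraries of the experiment 14.6 to 26.1 M. Of 32623 genes in the table, 13594 had enough counts to be tested. The microglial genes P2ry12, Tmem119 and Csf1r stood at 1677 to 2580, 1718 to 4601 and 10424 to 15551 CPM (a gene's counts scaled to the library's total) in all 15 libraries, while the neuronal gene Snap25 stood at 1.03 to 3.42 CPM and the T cell gene Cd3e was at 0 in 6 libraries. Libraries of one group correlated across genes with r of 0.963 to 0.989. The first principal component carried 35.4% of the variance of the 1000 most variable genes and put HuMSC125 replicate 1 (32.9), HuMSC50 replicate 3 (31.9) and HuMSC125 replicate 2 (20.0) apart from the rest, and the second (16.1%) put injured replicate 1 (38.2) apart, so results are also given without these libraries where they move. The labels do not say that replicates are separate animals, so p-values measure the spread between these libraries, which may be technical. In such bulk libraries, fewer cells of a type and less RNA per cell cannot be told apart.

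Against injured animals, Arc and Apold1 were lower in HuMSC125 libraries, and they were the 2 of 13594 genes (0.0147%) that passed an adjusted p of 0.05 in edgeR's quasi-likelihood test. Both belong to the genes that cells switch on quickly after a stimulus. Below that threshold, immediate early genes, NF-κB targets and antigen presentation genes were lower together in HuMSC125, while the co-chaperone gene Fkbp5 and genes of choroid plexus and astrocytes were higher. The gene lists counted here and below were chosen with earlier results of these data known. Their counts therefore describe the lists and are not independent support. At an unadjusted p of 0.05, 802 genes (5.90%) were higher and 809 genes (5.95%) were lower (the scaling of the libraries sets the median difference over all genes near 0). A second count model, DESeq2, called 44 genes higher (0.324%) and 91 lower (0.669%), 135 in all.

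Arc, an activity-regulated gene best known from neurons, had 2.56, 2.60 and 2.53 CPM in HuMSC125 libraries, against 7.47, 8.31 and 6.85 CPM in injured libraries. Its 3 HuMSC125 values lay close together and far below every injured value. The log2 difference was -1.55 ± 0.19 (SE), a level 2.94-fold lower, with an adjusted p of 0.0147 (edgeR) and 3.92e-08 in DESeq2. Apold1, an immediate early gene described in endothelial cells, had 20.7, 13.9 and 17.1 CPM in HuMSC125 libraries, against 83.4, 57.1 and 39.8 CPM in injured libraries. The groups did not overlap, but the injured values spread more than 2-fold. Its log2 difference was -1.80 ± 0.26, 3.48-fold lower, with an adjusted p of 0.0430 (edgeR) and 4.57e-08 in DESeq2. Both calls depended on single libraries: with each of the 6 left out in turn, the adjusted p of Arc ran from 0.0194 to 0.150 and that of Apold1 from 0.0116 to 0.332. Arc then passed only without injured replicate 1 or injured replicate 3, and Apold1 only without injured replicate 3, while the differences stayed between -1.63 and -1.49 for Arc and between -2.04 and -1.50 for Apold1.

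**Figure D1:**
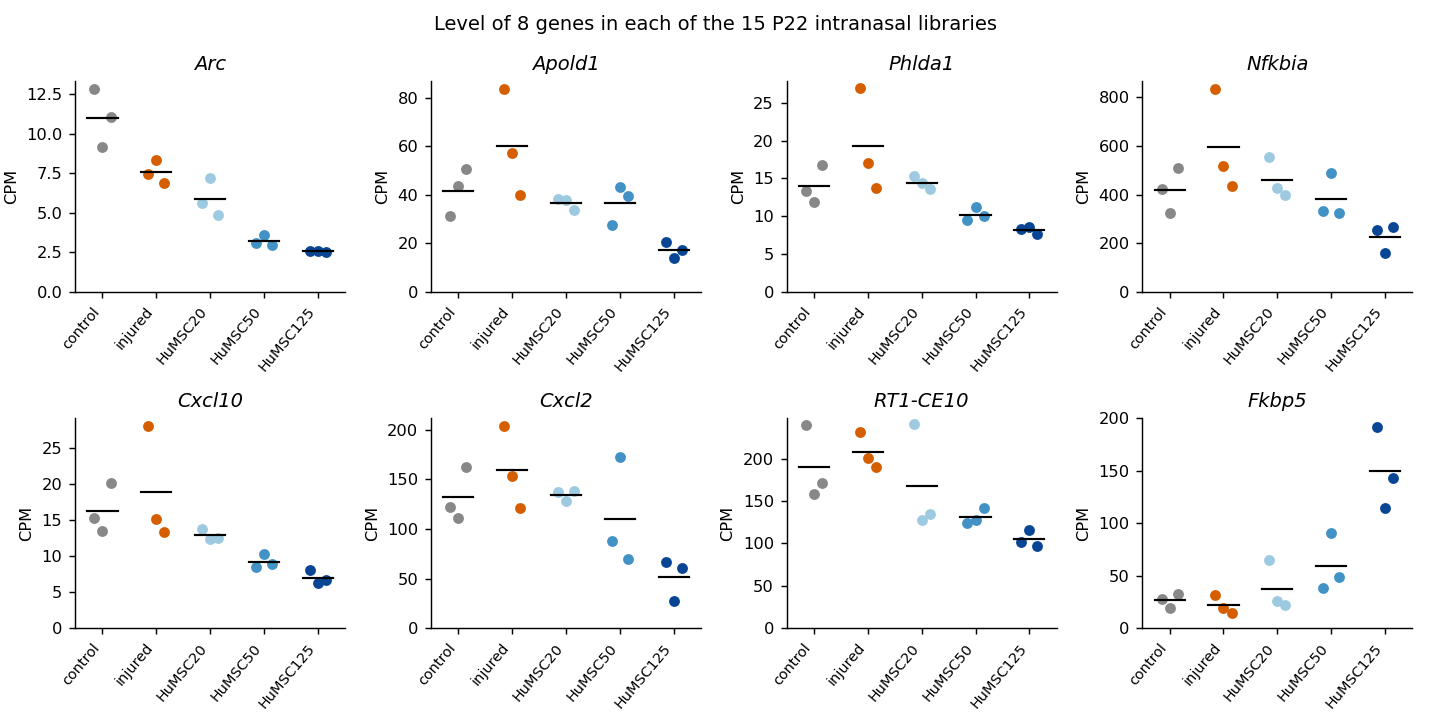
Levels in CPM (vertical axes, from 0) of 8 genes in each of the 15 P22 intranasal libraries, in the order control, injured, HuMSC20, HuMSC50 and HuMSC125, with 1 point per library and a bar at the group mean. The HuMSC125 points of Arc (2.53 to 2.60 CPM) lie below those of every other group, and those of Fkbp5 (114 to 191 CPM) lie above them.

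Immediate early genes were lower as a group. Of the 32 tested genes on a list of immediate early genes and genes that respond to tissue dissociation, 24 were lower at an unadjusted p of 0.05 and none was higher, against 5.95% and 5.90% of all genes, and 31 of 32 differences were negative with a median of -0.65 (the exception, Egr3 at 0.32, was named after its values were seen). Arc alone among them passed the adjusted edgeR test, and DESeq2 called 9 lower, against 0.669% of all genes. In 17 of the 32 genes all 3 HuMSC125 libraries lay below all 3 injured ones, which held for 7.69% of all genes. The mean level of the list was 6.15, 5.80 and 6.04 in HuMSC125 libraries and 6.88, 6.58 and 6.33 in injured libraries, as log2(CPM + 1), so the groups did not overlap, and injured replicate 1 was the highest of all 15 libraries. Without injured replicate 1, 16 genes were lower at that p with a median of -0.46 (4.81% of all genes were), and without HuMSC125 replicate 2, 14 genes with a median of -0.55 (4.03% of all genes). The list also responds to enzymatic dissociation, and its part in the result was not tested.

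Among them, the stress-induced transcription factor gene Atf3 had 60.3, 28.6 and 45.5 CPM in HuMSC125 libraries, against 168, 109 and 91.2 CPM in injured libraries, a log2 difference of -1.46 ± 0.30 (edgeR adjusted p = 0.202). The MAP kinase phosphatase gene Dusp2 was low in both groups, with 1.196, 0.676 and 0.714 CPM in HuMSC125 and 5.03, 2.88 and 2.19 CPM in injured libraries (-1.94 ± 0.40). Klf4, a transcription factor of macrophage activation, had 42.2, 37.6 and 46.6 CPM in HuMSC125 libraries, against 116, 86.4 and 63.0 CPM in injured libraries (-1.07 ± 0.23). These 3 genes did not overlap between the groups, yet none passed the adjusted edgeR test. All 3 passed in DESeq2, with an adjusted p of 0.00118 for Atf3 and 0.00338 for each of Dusp2 and Klf4. The best-known members, named here after their values were seen, differed less: Fos by -0.50 ± 0.19, Jun by -0.47 ± 0.22 and Egr1 by -0.48 ± 0.22. Egr1 overlapped between groups, with 702, 568 and 742 CPM in HuMSC125 libraries and 1268, 921 and 614 CPM in injured libraries. Dusp1, the phosphatase that ends stress kinase signals, had 1446, 827 and 1313 CPM in HuMSC125 libraries and 1550 to 2861 CPM in injured libraries (-0.84 ± 0.24). The antiproliferative gene Btg2 had 110 to 156 CPM in HuMSC125 libraries and 177 to 351 CPM in injured libraries (-0.89 ± 0.24). Among genes outside the list with the smallest p, Phlda1, a growth-factor-induced regulator of cell survival, had 8.27, 8.53 and 7.59 CPM in HuMSC125 libraries, against 26.9, 17.0 and 13.8 CPM in injured libraries (-1.24 ± 0.21, edgeR adjusted p = 0.118). Ccn1, a secreted matrix protein gene that serum and stretch induce, had 13.4, 8.06 and 11.8 CPM in HuMSC125 libraries, against 40.3, 23.7 and 19.1 CPM in injured libraries (-1.32 ± 0.25, adjusted p = 0.169). Rasgef1b, a guanine exchange factor gene that Toll-like receptors induce in macrophages, had 1.85, 0.884 and 1.69 CPM in HuMSC125 libraries, against 4.38, 5.96 and 5.94 CPM in injured libraries (-1.89 ± 0.36, adjusted p = 0.169). The stress cytokine gene Gdf15 had 3.22 to 5.003 CPM in HuMSC125 libraries and 6.80 to 11.2 CPM in injured libraries (-1.21 ± 0.24). In all 4 the groups were apart, and injured replicate 1 was highest in 3 of them.

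**Figure D2:**
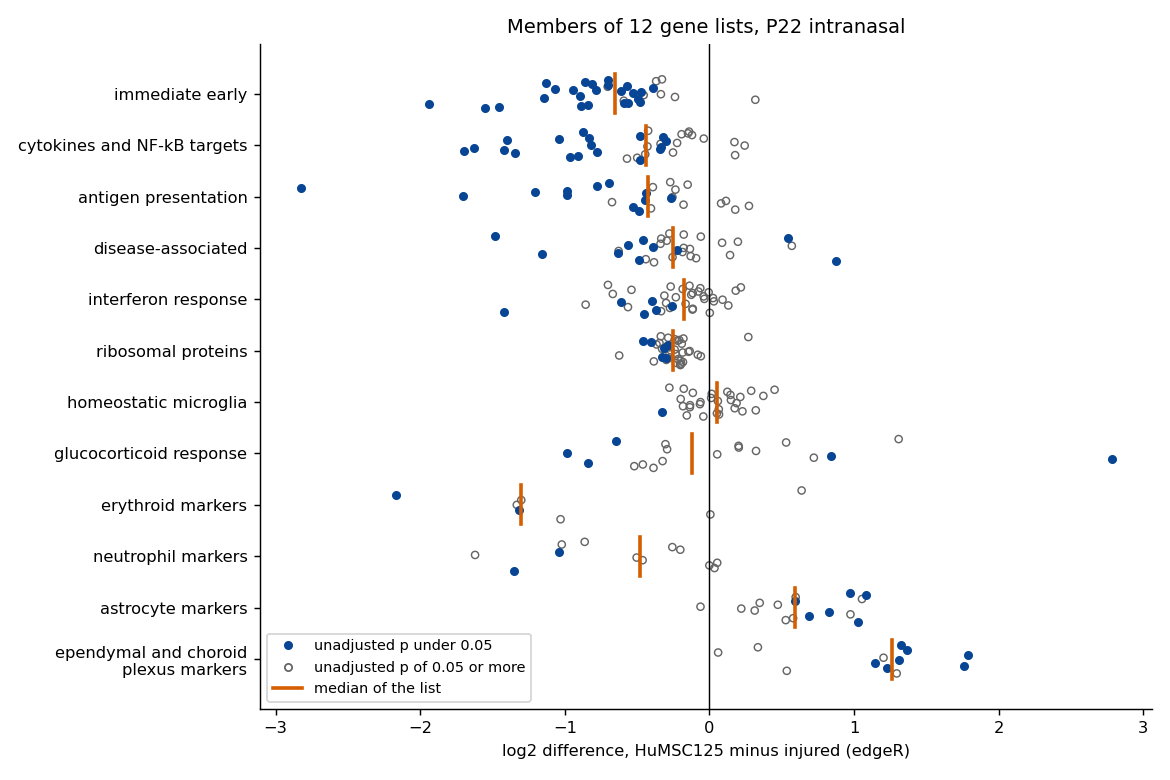
Log2 differences, HuMSC125 minus injured (horizontal axis), of the tested members of 12 gene lists, with 1 point per gene, filled where the unadjusted p was under 0.05, and an orange bar at each list's median. The medians run from -1.30 for erythroid markers and -0.65 for immediate early genes to 1.26 for ependymal and choroid plexus markers.

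Cytokine and NF-κB target genes were lower too. Of 34 tested genes, 18 were lower at an unadjusted p of 0.05 and none was higher, against 5.95% and 5.90% of all genes, and the median difference was -0.44. None passed the adjusted edgeR test, DESeq2 called 7 lower (0.669% of all genes), and 18 genes did not overlap between the groups in that direction (7.69% of all genes). The mean level of the list was 4.95, 4.76 and 5.01 in HuMSC125 libraries and 5.59, 5.36 and 5.29 in injured libraries, as log2(CPM + 1), again without overlap. Without injured replicate 1, 15 genes were lower with a median of -0.32, against 4.81% of all genes.

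Nfkbia encodes the inhibitor that holds NF-κB in the cytoplasm and is itself an NF-κB target. It had 253, 158 and 266 CPM in HuMSC125 libraries, against 834, 518 and 436 CPM in injured libraries (-1.40 ± 0.27, edgeR adjusted p = 0.169, DESeq2 3.56e-04). The interferon-inducible chemokine gene Cxcl10 had 8.05, 6.29 and 6.68 CPM in HuMSC125 libraries, against 28.1, 15.1 and 13.4 CPM in injured libraries (-1.42 ± 0.24, edgeR adjusted p = 0.118, DESeq2 9.07e-05). The neutrophil-attracting chemokine gene Cxcl2 had 66.6, 27.5 and 60.6 CPM in HuMSC125 libraries, against 203, 153 and 121 CPM in injured libraries (-1.63 ± 0.34, edgeR adjusted p = 0.202). All 3 genes had every HuMSC125 value below every injured one. Ccrl2, a chemokine-binding receptor gene that inflammation induces, had 13.1 to 19.7 CPM in HuMSC125 libraries and 31.2 to 58.9 CPM in injured libraries (-1.35 ± 0.30). Il1b itself, the rat gene of the injected cytokine, had 42.0, 27.8 and 39.1 CPM in HuMSC125 libraries, against 72.9, 67.9 and 51.9 CPM in injured libraries (-0.82 ± 0.34, edgeR adjusted p = 0.384). Ptgs2, the inducible prostaglandin synthase, stood at 1.04 to 2.08 CPM in HuMSC125 libraries and 2.37 to 3.22 CPM in injured libraries (-0.84 ± 0.29). Neither Ccrl2, Il1b nor Ptgs2 passed the adjusted edgeR test, although their groups did not overlap. In DESeq2 the adjusted p was 0.00427 for Ccrl2, 0.242 for Il1b and 0.216 for Ptgs2.

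The 250 bases before the start of these genes, from RefSeq (rat build GRCr8), are shown to place the letters that NF-κB and the activators of immediate early genes are known to bind. The windows were searched on both strands for the κB motif, the cAMP response element (CRE, TGACGTCA), the AP-1 motif (TGANTCA) and the serum response factor motif CArG. Capitals mark the matches: κB in Nfkbia, κB and then AP-1 in Cxcl10, a pair of overlapping κB matches in Cxcl2, and CRE in Dusp1.
Nfkbia, chr6:78597073-78597322, minus strand: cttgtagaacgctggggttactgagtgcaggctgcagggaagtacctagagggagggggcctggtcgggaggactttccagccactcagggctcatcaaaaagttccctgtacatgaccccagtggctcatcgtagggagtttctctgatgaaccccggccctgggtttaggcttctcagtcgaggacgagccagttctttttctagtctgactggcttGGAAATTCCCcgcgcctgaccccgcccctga
Cxcl10, chr14:15988816-15989065, plus strand: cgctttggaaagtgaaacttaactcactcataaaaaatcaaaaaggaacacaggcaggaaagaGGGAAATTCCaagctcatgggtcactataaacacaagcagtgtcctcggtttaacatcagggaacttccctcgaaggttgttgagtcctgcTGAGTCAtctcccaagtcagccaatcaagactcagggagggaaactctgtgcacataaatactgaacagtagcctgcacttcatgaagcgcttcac
Cxcl2, chr14:17467256-17467505, minus strand: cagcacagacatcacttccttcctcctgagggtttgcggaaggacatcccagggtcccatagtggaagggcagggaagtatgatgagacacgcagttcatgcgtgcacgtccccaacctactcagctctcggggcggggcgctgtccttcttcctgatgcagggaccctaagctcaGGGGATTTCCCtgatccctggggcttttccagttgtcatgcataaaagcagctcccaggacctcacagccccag
Dusp1, chr10:17184603-17184852, plus strand: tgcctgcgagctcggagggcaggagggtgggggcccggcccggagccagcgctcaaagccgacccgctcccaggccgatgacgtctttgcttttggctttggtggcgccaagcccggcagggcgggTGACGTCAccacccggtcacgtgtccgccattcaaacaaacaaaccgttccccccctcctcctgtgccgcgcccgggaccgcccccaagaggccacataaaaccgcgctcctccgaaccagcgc
The first matched base lay 31 bases before the start in Nfkbia, 187 (κB) and 96 (AP-1) in Cxcl10, 74 and 73 in Cxcl2 and 124 in Dusp1. A κB match was found in 12 of the 28 cytokine and NF-κB target promoters in the table (42.9%), against 1185 of all 33469 promoters (3.54%). Of the 23 immediate early promoters in the table, 6 held a CRE (26.1%, against 1.59% of all) and 5 a CArG match (21.7%, against 1.5% of all), while 1 held κB (4.35%). The NF-κB list was made up of known targets of that factor, so the shares describe the lists and bear on no difference between the samples. A κB match was also found in 9 of the 21 antigen presentation promoters in the table (42.9%). The windows of Apold1, Fkbp5, Phlda1, Eef2k, Rasgef1b, Ccn1, Gdf15 and Klf4 held none of these letters, and that of Egr1 held CArG matches. Arc, Atf3, Fos, Jun, Fzd2 and Mir142 had no promoter entry.

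Antigen presentation genes were lower as well. Of 24 tested genes on that list, which holds class I and class II genes together, 12 were lower at an unadjusted p of 0.05 and none was higher, against 5.95% and 5.90% of all genes, with a median of -0.42. None passed the adjusted edgeR test and DESeq2 called 6 lower, against 0.669% of all genes. RT1-CE10, a class I gene, had 102, 116 and 96.9 CPM in HuMSC125 libraries, against 232, 200 and 190 CPM in injured libraries (-0.98 ± 0.21, adjusted p = 0.202). The class I gene RT1-A1 had 109, 118 and 103 CPM in HuMSC125 libraries, against 408, 450 and 221 CPM in injured libraries (-1.71 ± 0.38). Near-identical class I copies share reads, so the split between these genes is uncertain. Tap1, which carries peptides to class I molecules, had 72.0, 66.8 and 66.0 CPM in HuMSC125 libraries, against 117, 127 and 86.4 CPM in injured libraries (-0.69 ± 0.15). B2m, the light chain shared by class I molecules, had 1418, 1350 and 1492 CPM in HuMSC125 libraries, against 2407, 1607 and 1964 CPM in injured libraries (-0.49 ± 0.14). In each of these 4 genes the HuMSC125 libraries lay closer together than the injured ones, and the groups did not overlap. The class II gene RT1-DOb had 2.94, 1.77 and 1.82 CPM in HuMSC125 libraries, against 34.8, 8.31 and 3.64 CPM in injured libraries, so its difference of -2.83 ± 0.68 rests largely on injured replicate 1 and was -1.45 at the smallest when libraries were left out in turn. Cd74, the class II chaperone, had 422 to 730 CPM in HuMSC125 libraries and 737 to 1028 CPM in injured libraries (-0.53 ± 0.19).

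**Figure D3:**
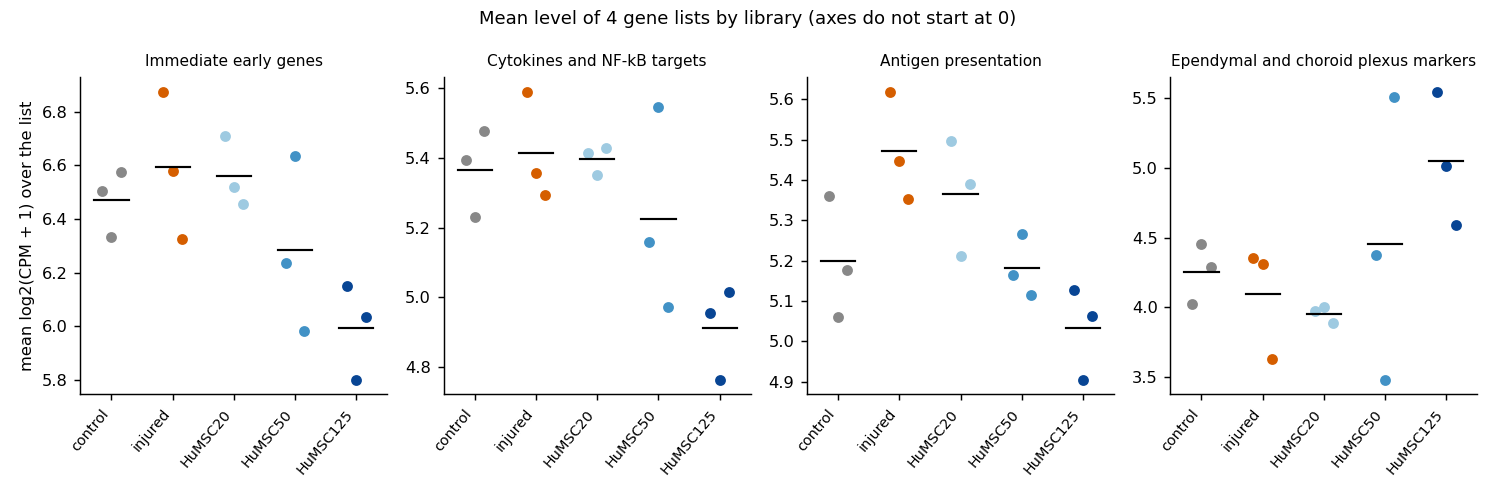
Mean level of 4 gene lists as log2(CPM + 1) (vertical axes, not from 0) in each of the 15 P22 intranasal libraries, in the order control, injured, HuMSC20, HuMSC50 and HuMSC125, with a bar at the group mean. HuMSC125 libraries are low for immediate early genes (5.80 to 6.15) and NF-κB targets (4.76 to 5.01) and high for ependymal and choroid plexus markers (4.59 to 5.55).

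Among the genes that were higher, Fkbp5 had the smallest p. This gene encodes a co-chaperone of the glucocorticoid receptor and is a well-known target of that receptor. It had 191, 114 and 143 CPM in HuMSC125 libraries, against 32.2, 19.2 and 14.2 CPM in injured libraries. Every HuMSC125 library was more than 3 times the highest injured one. The log2 difference was 2.78 ± 0.45, 6.88-fold higher, and it missed the adjusted test in edgeR (adjusted p = 0.0971) while passing in DESeq2 (4.24e-05). With each library left out in turn it ran from 2.53 to 3.16. Glucocorticoid targets did not share one direction, with 9 of 18 tested genes positive and a median of -0.12. At an unadjusted p of 0.05, Fkbp5 and Klf9 were higher and Dusp1, Tsc22d3 and Mt1 lower, against 5.90% and 5.95% of all genes. Klf9 had 12.4, 11.4 and 10.8 CPM in HuMSC125 libraries, against 4.24, 9.92 and 5.30 CPM in injured libraries (0.84 ± 0.25). Tsc22d3, which encodes the leucine zipper protein GILZ, was lower, with 141, 97.4 and 172 CPM in HuMSC125 libraries and 281, 200 and 164 CPM in injured libraries (-0.65 ± 0.22). Those 2 targets thus differed in opposite directions, and Tsc22d3 overlapped between the groups. Eef2k, the kinase that slows translation elongation, had 701, 607 and 592 CPM in HuMSC125 libraries, against 334, 322 and 356 CPM in injured libraries (0.91 ± 0.17, edgeR adjusted p = 0.169). Fzd2, a Wnt receptor gene, had 3.97, 2.76 and 3.05 CPM in HuMSC125 libraries, against 1.00, 1.68 and 0.964 CPM in injured libraries (1.43 ± 0.29). Itgb8, the integrin subunit that activates latent TGF-β, had 7.83, 4.47 and 4.67 CPM in HuMSC125 libraries, against 0.144, 2.14 and 1.02 CPM in injured libraries (2.35 ± 0.60). Jdp2, a repressor of AP-1, had 86.8 to 105 CPM in HuMSC125 libraries and 49.2 to 54.8 CPM in injured libraries (0.88 ± 0.24). These 4 genes were higher in every HuMSC125 library than in any injured one, which held for 7.41% of all genes, and none passed the adjusted edgeR test.

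Homeostatic genes of microglia were near the background of the lists that follow, 5.90% of all genes higher and 5.95% lower at an unadjusted p of 0.05. Of 29 tested homeostatic genes, none was higher and 1 was lower at an unadjusted p of 0.05 (Cst3, the cystatin C gene, by -0.33 ± 0.15), with a median of 0.051. P2ry12, the purinergic receptor of surveying microglia, had 1857, 1945 and 2491 CPM in HuMSC125 libraries and 1677, 1999 and 2368 CPM in injured libraries (0.058 ± 0.15). Cx3cr1, the fractalkine receptor, had 2803, 2820 and 2724 CPM in HuMSC125 libraries and 1292, 2833 and 3002 CPM in injured libraries, where replicate 1 was low (0.23 ± 0.21). Tmem119 had 2271 to 4601 CPM in HuMSC125 libraries and 2148 to 3183 CPM in injured libraries (0.45 ± 0.31). The groups overlapped in all 3 genes. Of 29 tested disease-associated genes, 2 were higher and 8 lower at that p, with a median of -0.26, the lipase gene Lpl (0.54 ± 0.23) and the receptor kinase gene Axl (0.87 ± 0.38) being the higher ones. Spp1, the osteopontin gene, had 16.6, 12.7 and 4.15 CPM in HuMSC125 libraries and 43.4, 32.0 and 19.3 CPM in injured libraries (-1.49 ± 0.48). Ch25h, which makes 25-hydroxycholesterol, had 88.9, 73.6 and 127 CPM in HuMSC125 libraries and 259, 201 and 188 CPM in injured libraries (-1.16 ± 0.26). Apoe differed by -0.38 ± 0.18 and Lgals3, the galectin-3 gene, by -0.46 ± 0.20. The groups did not overlap in Spp1 and Ch25h (DESeq2 adjusted p of 0.174 and 0.00454). No disease-associated gene passed the adjusted edgeR test, and DESeq2 called 1 lower, against 0.669% of all genes. Interferon response genes were lower in 6 of 36 at that p with a median of -0.18, Irf1 among them (-0.40 ± 0.14). Of 40 ribosomal protein genes, 6 were lower with a median of -0.25. Repair and anti-inflammatory markers were mixed, with 3 of 21 higher, 5 lower and a median of -0.13, and the mannose receptor gene Mrc1 overlapped between the groups (0.24 ± 0.18). Il1r2, the decoy receptor of IL-1, had 0.761, 0.832 and 1.23 CPM in HuMSC125 libraries and 5.96, 2.08 and 3.00 CPM in injured libraries (-1.96 ± 0.44). Socs3, a feedback inhibitor of cytokine signals, had 24.7 to 42.5 CPM in HuMSC125 libraries and 44.4 to 62.5 CPM in injured libraries (-0.72 ± 0.26). Both of these feedback genes were lower in every HuMSC125 library than in any injured one. Neither passed the adjusted edgeR test, and the DESeq2 adjusted p was 0.00573 for Il1r2 and 0.189 for Socs3. The row named Mir142 counts polyadenylated reads of that locus and not the mature miRNA, and it had 0.653, 0.676 and 1.30 CPM in HuMSC125 libraries and 6.25, 3.02 and 2.41 CPM in injured libraries (-2.15 ± 0.41).

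Markers of other cells differed along with these lists. Of 12 tested ependymal and choroid plexus markers, 7 were higher and none lower at an unadjusted p of 0.05, against 5.90% and 5.95% of all genes, with a median of 1.26. Their summed level was 5678 to 13500 CPM in HuMSC125 libraries and 2004 to 4924 CPM in injured libraries. Kl, the klotho gene of choroid plexus, had 137, 80.2 and 47.8 CPM in HuMSC125 libraries, against 19.7, 39.0 and 18.1 CPM in injured libraries (1.79 ± 0.58). Clic6, of the chloride channel family, had 70.4 to 200 CPM in HuMSC125 libraries and 23.8 to 48.7 CPM in injured libraries (1.76 ± 0.63), and Enpp2, the autotaxin gene, 799 to 1511 CPM in HuMSC125 libraries and 350 to 560 CPM in injured libraries (1.31 ± 0.43). Ttr, the thyroid hormone carrier made in choroid plexus, had 11310, 6388 and 4624 CPM in HuMSC125 libraries and 4312, 3021 and 1563 CPM in injured libraries, and was named after its values were seen. All 4 markers were highest in HuMSC125 replicate 1 of the 6 libraries. Without that library, 2 of the 12 markers were higher at that p with a median of 0.85, against 2.55% of all genes. Without injured replicate 3 it was again 2, with a median of 0.98, against 7.36% of all genes. Of 16 astrocyte markers, 6 were higher and none lower with a median of 0.59, and their summed level was 878 to 1241 CPM in HuMSC125 libraries and 569 to 743 CPM in injured libraries. Of 7 erythroid markers 2 were lower with a median of -1.30, Hba-a2 at 29.4, 10.4 and 11.2 CPM in HuMSC125 and 31.2, 31.8 and 63.8 CPM in injured libraries, and of 12 neutrophil markers 2 were lower (Camp and Ngp) with a median of -0.48. The 11 microglia markers summed to 36250 to 40560 CPM in HuMSC125 libraries and 38640 to 39960 CPM in injured libraries, with none past that p.

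The lists were then set against the choroid plexus level, in alternatives chosen after these values were seen. With the mean choroid plexus marker level as a covariate, 13 of 32 immediate early genes were lower at an unadjusted p of 0.05 (median -0.48), 12 of 34 NF-κB targets (median -0.25) and 9 of 24 antigen presentation genes (median -0.40), against 5.13% of all genes in that fit. That level did not overlap between HuMSC125 (4.59 to 5.55) and injured libraries (3.63 to 4.35). The fit therefore cannot fully tell the marker level apart from the treatment. Without HuMSC125 replicate 1 and HuMSC50 replicate 3, which had the highest choroid plexus marker levels, 24 immediate early genes (median -0.75), 16 NF-κB targets (median -0.42) and 13 antigen presentation genes (median -0.49) were lower, against 3.65% of all genes. Arc and Apold1 had an adjusted edgeR p of 0.0599 each under the covariate and 0.106 each without the 2 libraries.

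Set against uninjured controls, HuMSC125 libraries were lower in immediate early genes and NF-κB targets, with mean list levels below every control library. For antigen presentation the mean list levels overlapped, at 4.90 to 5.13 in HuMSC125 and 5.06 to 5.36 in control libraries, as log2(CPM + 1). In this comparison Arc fell and was the 1 gene of 13594 (0.00736%) called by edgeR, with 2.53 to 2.60 CPM in HuMSC125 libraries and 12.8, 9.12 and 11.1 CPM in control libraries (-2.10 ± 0.19, 4.28-fold lower, adjusted p = 3.52e-04). DESeq2 called 23 genes higher and 47 lower (0.346%). At an unadjusted p of 0.05, 15 of 32 immediate early genes and 19 of 34 NF-κB targets were lower in HuMSC125 than in controls, against 3.46% of all genes, with medians of -0.48 and -0.42. For antigen presentation, 5 of 24 were lower with a median of -0.086. Cxcl10 had 6.29 to 8.05 CPM in HuMSC125 libraries and 13.5 to 20.2 CPM in control libraries (-1.22 ± 0.24), and Apold1 13.9 to 20.7 CPM in HuMSC125 libraries and 31.1 to 50.5 CPM in control libraries (-1.28 ± 0.26). Neither passed the adjusted edgeR test, and neither overlapped. Both passed in DESeq2, with an adjusted p of 0.00228 for Cxcl10 and 0.00168 for Apold1. Jdp2 had 86.8 to 105 CPM in HuMSC125 libraries and 27.0, 28.2 and 50.1 CPM in control libraries (1.46 ± 0.24, edgeR adjusted p = 0.125). Gdf15 differed by -1.28 ± 0.24 and Arrdc3, an arrestin-like gene of receptor turnover, by -1.23 ± 0.23 (48.4 to 80.1 CPM in HuMSC125 and 113 to 180 CPM in control libraries). Choroid plexus markers were again higher, in 4 of 12 (3.97% of all genes) with a median of 0.99. Between the injured group and controls, edgeR called 0 genes, and 646 had an unadjusted p under 0.05 (4.75%). Antigen presentation genes were higher in injured animals at that p in 6 of 24, against 2.83% of all genes, with none lower, 20 of 24 positive and a median of 0.23, while the medians were 0.18 for immediate early genes and 0.15 for NF-κB targets. HuMSC125 minus injured, HuMSC125 minus control and injured minus control share libraries, so these values are not independent of each other.

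The highest dose stood apart from the lower ones in part. By rising dose, the median difference from injured animals for immediate early genes was -0.085 in HuMSC20, -0.34 in HuMSC50 and -0.65 in HuMSC125, with 0, 9 and 24 of 32 genes lower at an unadjusted p of 0.05. All 3 differences use the same injured libraries, and the share of all genes lower at that p was 8.19%, 9.88% and 5.95% by rising dose. For NF-κB targets the medians were -0.10, -0.15 and -0.44, with 1, 5 and 18 of 34 genes lower. For antigen presentation they were -0.098, -0.33 and -0.42, with 7, 11 and 12 of 24 genes lower, so HuMSC50 lay near HuMSC125. Fkbp5 averaged 37.7 ± 23.8 CPM in HuMSC20, 59.3 ± 27.6 CPM in HuMSC50 and 149.6 ± 39.0 CPM in HuMSC125 (SD, n = 3 each), and the lower doses overlapped, with 65.1, 26.1 and 21.9 CPM in HuMSC20 and 38.2, 90.5 and 49.2 CPM in HuMSC50. Arc had 5.62, 7.16 and 4.86 CPM in HuMSC20, 3.08, 3.59 and 2.98 CPM in HuMSC50 and 2.53 to 2.60 CPM in HuMSC125, 3 groups with no overlap. Tested directly against the mean of both lower doses, edgeR called 0 genes, 1159 (8.53%) had an unadjusted p under 0.05 and DESeq2 called 6 higher (0.0441%) and 30 lower (0.221%). Here 22 of 32 immediate early genes and 14 of 34 NF-κB targets were lower in HuMSC125 at that p, against 3.44% of all genes, with medians of -0.50 and -0.43, and 9 of 24 antigen presentation genes with a median of -0.22. The mean list levels of HuMSC125 and HuMSC50 overlapped, at 5.80 to 6.15 and 5.98 to 6.63 for immediate early genes. For NF-κB targets they were 4.76 to 5.01 and 4.97 to 5.55. This test averaged both lower doses, and HuMSC125 was not tested against HuMSC50 alone. The smallest p belonged to Pde4b, a phosphodiesterase gene that breaks down cAMP, with 5.98, 5.20 and 4.15 CPM in HuMSC125 libraries and a log2 difference of -1.03 ± 0.15 (edgeR adjusted p = 0.0893). The count of 0 depended on single libraries. Without HuMSC50 replicate 3, which was rich in choroid plexus RNA, 267 genes passed, 231 of them higher in HuMSC125. Without HuMSC125 replicate 1, 3 genes passed. HuMSC50 replicate 2, in turn, was high for immediate early genes (6.63) where the other HuMSC50 libraries were at 6.24 and 5.98.

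After the same dose given into a vein at P20, immediate early genes leaned the other way from the intranasal run and NF-κB targets were split. In the intravenous experiment at P22, with its own injured libraries and its own sequencing run, edgeR called 1 of 14032 genes (0.00713%). At an unadjusted p of 0.05, 7 of 32 immediate early genes were higher in HuMSC125 and none was lower, against 7.03% and 7.66% of all genes, with a median of 0.34. The libraries were not alike: in Fos, Jun, Dusp1 and Klf4, HuMSC125 replicates 1 and 2 lay above every injured library and replicate 3 below them all. Fos had 2705, 3001 and 1404 CPM in HuMSC125 libraries and 1660 to 2388 CPM in injured ones. In Egr1, replicate 3 (932 CPM) lay among the injured values. Of 34 NF-κB targets 4 were higher and 4 lower with a median of 0.036. Arc had 7.77, 11.2 and 8.11 CPM in intravenous HuMSC125 libraries and 9.96, 9.71 and 9.57 CPM in injured libraries of that run (-0.12 ± 0.31). Nfkbia had 733, 796 and 489 CPM in intravenous HuMSC125 libraries and 568, 551 and 594 CPM in injured ones (0.23 ± 0.25). Choroid plexus markers, by contrast, were higher by this route also, in 11 of 12 with a median of 1.15, and Fkbp5 had 62.0, 124 and 70.0 CPM in intravenous HuMSC125 libraries, against 26.04, 26.8 and 28.7 CPM in injured ones (1.64 ± 0.47, edgeR adjusted p = 0.153). Choroid plexus markers were thus higher than in injured libraries by both routes. Of 18 tested glucocorticoid targets in the intravenous run, 5 were higher and 0 lower at an unadjusted p of 0.05, with a median of 0.37. Tsc22d3 had 290 to 434 CPM in intravenous HuMSC125 libraries and 236 to 272 CPM in injured ones, the other way from the intranasal run.

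Tested directly, the intranasal effect minus the intravenous effect of the dose passed the adjusted edgeR test in 0 of 14184 genes. DESeq2 called 14, all lower, and 638 genes (4.50%) had an unadjusted edgeR p under 0.05. At that p, 28 of 32 immediate early genes had a lower intranasal effect, against 3.14% of all genes, and all 32 differences were negative with a median of -1.04. For NF-κB targets it was 15 of 34 with a median of -0.73, for antigen presentation 6 of 24 with a median of -0.46, and for choroid plexus markers none with a median of -0.017. Phlda1 had the smallest p (-1.28 ± 0.26, edgeR adjusted p = 0.248), followed by Rasgef1b (-2.48 ± 0.52), Ch25h (-1.96 ± 0.41) and Btg2 (-1.69 ± 0.36), and Arc differed by -1.47 ± 0.38. Btg2 had 543, 659 and 264 CPM in intravenous HuMSC125 libraries and 275 to 296 CPM in injured libraries of that run, so 2 libraries leaned the other way from the intranasal run while the third lay just below the injured ones. Fos, Jun, Dusp1 and Klf4 had the same split of intravenous libraries. Route and sequencing run coincide and cannot be told apart, although each route has its own injured libraries.

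**Figure D4:**
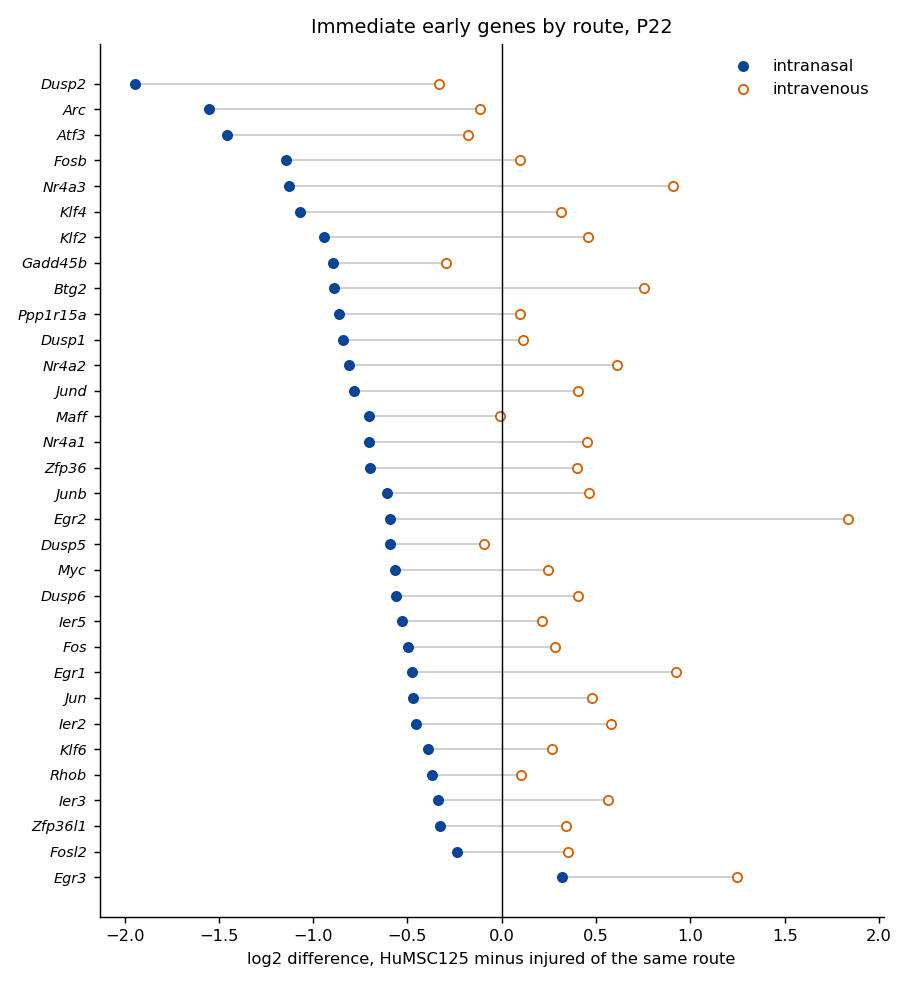
Log2 difference between HuMSC125 and injured libraries of the same route (horizontal axis) for each of 32 immediate early genes (rows), intranasal and intravenous, both at P22. The intranasal points lie to the left of the intravenous ones in every row, with Arc at -1.55 and -0.12 and Btg2 at -0.89 and 0.75.

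An earlier intranasal experiment, with the same dose given at P10 and microglia taken at P12, shares no library with the P22 one. There HuMSC125 differed from its injured group in 146 of 13868 genes (1.05%), 22 higher (0.159%) and 124 lower (0.894%). Immediate early genes fell in 9 of 32 by the adjusted edgeR test (median -0.77) and NF-κB targets in 11 of 34 (median -0.76). All 124 lower genes were tested at P22, where 101 were again lower and 51 at an unadjusted p of 0.05, which is 41.1% of them against 5.95% of all genes and 6.30% of the 809 genes lower at that p. None was higher at that p. Of the 22 higher genes, 12 were higher at P22 and 1 at an unadjusted p of 0.05. Arc had 6.91, 8.81 and 7.80 CPM in HuMSC125 libraries and 20.6, 10.9 and 22.1 CPM in injured libraries at P12 (-1.18 ± 0.26, edgeR adjusted p = 0.0442), and Apold1 fell as well (-1.34 ± 0.29, 0.0402). Cxcl10 fell by 1.05 ± 0.24 on the log2 scale at P12 (edgeR adjusted p = 0.0451), Cxcl2 by 1.68 ± 0.33 (0.0234) and Atf3 by 1.74 ± 0.25 (0.00510). Fkbp5 did not follow: it had 28.4, 32.7 and 23.6 CPM in HuMSC125 libraries and 33.0, 25.1 and 32.4 CPM in injured libraries at P12 (-0.084 ± 0.15). Nfkbia had 169, 341 and 233 CPM in HuMSC125 libraries and 1013, 423 and 462 CPM in injured libraries at P12 and did not pass (-1.34 ± 0.33, edgeR adjusted p = 0.0692). P12 HuMSC125 replicate 2 was rich in neuron markers, with a mean log2(CPM + 1) of 3.00 against 1.48 to 2.09 in the other libraries. Without it, 132 genes were called, 112 of them lower, 58 of those were lower at P22 at an unadjusted p of 0.05, Arc, Apold1 and Cxcl10 no longer passed (edgeR adjusted p of 0.0634, 0.0634 and 0.0656), and Nfkbia did (0.0436). At P7, the intranasal dose gave 0 calls by edgeR, with 1029 genes at an unadjusted p under 0.05 (7.42%), and immediate early genes had 7 higher and 8 lower with a median of 0.12. At P7 by the intravenous route, edgeR called 1074 of 14698 genes (7.31%), 125 of them lower (0.850%). There immediate early genes fell in 7 of 32 and were lower at an unadjusted p of 0.05 in 19 (median -0.55), and NF-κB targets fell in 13 of 33 and were lower in 20 (median -0.52), against 6.18% of all genes. In those libraries neuron markers rose in 20 of 23 with a median of 3.20, whose part in the result was not tested. At P12 by the intravenous route, edgeR called 4 of 13874 genes (0.0288%), and 7 of 32 immediate early genes were higher at an unadjusted p of 0.05 (median 0.15), against 2.90% of all genes.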

How the data were processed

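Gene-level counts were deposited by the authors as whole numbers per gene and library, without normalization. The submitters' processing notes list DESeq2 1.8.1, HTSeq 0.5.3, STAR 2.7.2d and SAMtools, and the genome build and annotation of the counts are not given in the sources used here. Per the labels' protocols, 100 ng of RNA went into stranded polyA libraries read as single 75 bp reads. From the counts, edgeR 4.0.16 (R 4.3.3) fitted quasi-likelihood models with TMM scaling to the 15 P22 intranasal libraries, after filterByExpr (minimum count 10, minimum total 15), with Benjamini-Hochberg adjustment and a threshold of 0.05. All 5 groups shared one estimate of spread, and no covariate was used. The difference between routes was an interaction over 30 P22 libraries, and other experiments were fitted alone in the same way. DESeq2 1.42.0 was an alternative. SE is the log2 difference divided by the root of the F statistic, and CPM uses TMM library sizes. Called genes, the 10 smallest p of a comparison, up to 4 members per list and a fixed list of microglial genes were named. The members and the 36 lists (740 of 779 genes in the table) were chosen with earlier results of these data known. On simulated data, the fit recovered 92% of genes with log2 changes of 2 or -2, and 82% and 70% of genes with changes of 1 and -1. The simulated counts were drawn for each gene from its fitted spread, without libraries that stand apart, and genes of very low level were not changed. These shares therefore need not hold for the real libraries. No 2 libraries of a group agreed within sampling noise.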

Additional observations from a re-analysis of the deposited data

How the results depend on the processing

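Counts of called genes depended on the tool and on single libraries, while the directions of the named genes moved little. With DESeq2 the calls were 135 against injured animals, 70 against controls, 36 against the lower doses and 14 for the difference between routes, and without a filter on low counts edgeR gave 8, 6, 3 and 0. Other size factors (RLE) gave 2, 1, 0 and 0, as in the results. With the groups of the comparison alone, edgeR called 0 genes against injured animals (1008 at an unadjusted p under 0.05) and 4 against controls. With each library left out in turn, the calls ran from 0 to 4 against injured animals, from 1 to 2 against controls, from 0 to 267 against the lower doses (267 without HuMSC50 replicate 3, 3 without HuMSC125 replicate 1) and from 0 to 3 for the routes. With the choroid plexus level as a covariate edgeR called 0 genes against injured animals (1195 at an unadjusted p under 0.05), and without the 2 libraries highest in choroid plexus markers it called 1 against injured animals, 2 against controls and 2 against the lower doses. These last alternatives were chosen after seeing the data. The replicate block left 0 calls against injured animals (1531 at an unadjusted p under 0.05), with an adjusted edgeR p of 0.0505 for Arc and 0.157 for Apold1. Same-numbered HuMSC125 and injured libraries deviated together with r of 0.021, 0.13 and 0.12 across genes, and pairs of unlike numbers with r of -0.26 to 0.17. These values show no clear pairing, but with 3 libraries per group they cannot exclude a shared litter or day. With the block, 4 of 12 ependymal and choroid plexus markers were higher at an unadjusted p of 0.05, against 5.44% of all genes. Arc against controls passed under every alternative run. Among single genes, Ttr was -0.12 with the choroid plexus covariate, P2ry12 ran from -0.10 to 0.18 and Cx3cr1 from -0.074 to 0.42 with libraries left out. The cause of these shifts was not tested. Genes below about 1 CPM, such as Dusp2 and Itgb8 in some libraries, rest on few reads.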
